A study of Mus musculus with 12 samples.

Results

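The 9 genes described here, Sox9, Sox4, Pkhd1, Bicc1, Krt7, Krt19, Epcam, Spp1 and Cftr, are genes of the biliary program. They are 9 of the 32285 genes in the count matrices, listed by name. Single-nucleus RNA sequencing was run on 24 hashtag samples from 8 mice, with 8 samples in each of 3 sample types, and 4 samples were sequenced together in each of 6 pools. Liver (L) was a piece of the median lobe, cut off and frozen after buffer had flushed the blood from the liver. Cell Suspension (CS) was the cells of the same liver after collagenase perfusion, straining and washing by centrifugation. Primary Hepatocytes (PH) were those cells after 24 h on collagen-coated plates in a medium with dexamethasone and insulin. All mice were untreated wild-type animals. Their labels give the strain as C57BL6J, and the study's methods describe young adult males of another C57BL/6 substrain. As a model, PH holds the cells that attached to the plate. It also held 1733 nuclei of a cultured endothelial cluster, 175 of a cultured stellate cluster and 23 biliary nuclei of cluster 30. Non-cultured labels gave PH a further 77 Kupffer, 76 endothelial, 17 stellate and 10 leukocyte nuclei. The paper reports leukocytes, Kupffer cells and biliary cells as absent from PH. It proposes that clusters like non-cultured hepatocytes and endothelial cells were either partly differentiated or misassigned from L and CS.

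Cholangiocytes are the epithelial cells that line the bile ducts. They share an embryonic precursor with hepatocytes, and the biliary fate depends on Notch signalling, on the YAP and TEAD factors and on Sox transcription factors. In the injured liver, hepatocytes are known to take up part of this program, beginning with Sox9, while keratins 7 and 19 and Epcam mark mature ducts. The members fall into 4 roles. Sox9 and Sox4 are transcription factors of duct formation. Pkhd1 encodes fibrocystin, a protein of the primary cilium whose loss causes cysts in ducts and kidney, and Bicc1 is an RNA-binding protein whose loss does the same. Krt7, Krt19 and Epcam are the structural markers of duct epithelium. Spp1 encodes the secreted glycoprotein osteopontin, and Cftr is the chloride channel that drives ductal bicarbonate secretion.

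The promoters of 3 members are shown because Sox4 and Spp1 rose in culture and Pkhd1 was lower in the summed hepatocyte nuclei, in a call that depended on the scaling. They are the 250 bases before the annotated start site on the gene's strand, from RefSeq on GRCm38.p6: Sox4 chr13:28953700-28953949 (minus strand), Spp1 chr5:104434861-104435110 (plus strand) and Pkhd1 chr1:20618058-20618307 (minus strand). Capitals mark GGAATG, the core letters of TEAD binding sites.
Sox4: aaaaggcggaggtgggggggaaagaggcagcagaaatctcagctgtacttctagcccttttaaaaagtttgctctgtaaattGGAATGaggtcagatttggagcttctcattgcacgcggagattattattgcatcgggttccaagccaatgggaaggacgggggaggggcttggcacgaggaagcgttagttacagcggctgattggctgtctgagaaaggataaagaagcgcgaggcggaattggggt
Spp1: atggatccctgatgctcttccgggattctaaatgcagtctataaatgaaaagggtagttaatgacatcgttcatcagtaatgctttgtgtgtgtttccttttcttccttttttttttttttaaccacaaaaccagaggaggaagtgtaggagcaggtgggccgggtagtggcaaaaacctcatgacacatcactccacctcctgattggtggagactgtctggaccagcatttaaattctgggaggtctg
Pkhd1: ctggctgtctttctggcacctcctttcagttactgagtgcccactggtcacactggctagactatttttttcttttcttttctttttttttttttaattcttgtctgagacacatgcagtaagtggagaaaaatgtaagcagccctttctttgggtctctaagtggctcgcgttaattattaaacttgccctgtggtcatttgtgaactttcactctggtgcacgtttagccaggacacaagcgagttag

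RefSeq promoter entries were found for 6 of the 9 members (Sox4, Pkhd1, Krt7, Epcam, Spp1 and Cftr), 7 entries in all because Spp1 has 2 start sites. They were searched on both strands for GGAATG, for GTGGGAA (the Notch partner RBPJ) and for TGANTCA (AP-1). The only match in the 7 entries, so with no overlap between motifs, was GGAATG in Sox4, whose first base lies at position -168 from the start site. Of 32851 promoters of this length in the table, 12.6% hold GGAATG, 5.42% GTGGGAA and 6.75% TGANTCA, so a match of this kind is common and describes letters, not a bound site.

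The genes differ widely in structure. Pkhd1 spans 560.3 kb at chr1:20057779-20618064 and has up to 67 exons. Cftr spans 152.1 kb at chr6:18170687-18322768, and Bicc1 236.9 kb at chr10:70922832-71159700. The others are compact: Sox9 lies at chr11:112782224-112787760, Sox4 at chr13:28948919-28953713 with 1 exon, Spp1 at chr5:104435118-104441050, Krt7 at chr15:101411043-101430313, Krt19 at chr11:100140810-100148665 and Epcam at chr17:87635979-87651129, all on GRCm38. Nuclear RNA holds many introns. Levels of the members are compared here between samples or classes of nuclei for 1 gene at a time, and sums over marker lists are set side by side only to check an annotation.

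Hepatocyte nuclei were taken by the authors' annotation, with the 4 cultured clusters 0, 1, 14 and 17 as the cultured hepatocytes. They numbered 15000 in L, 12634 in CS and 14833 in PH, of 53467 nuclei. A sample held between 2065229 and 29018248 unique molecular identifiers (UMIs, counted RNA molecules) in these nuclei. The median over samples of each sample's median per nucleus was 6970 in L, 3443.25 in CS and 6177.75 in PH. The 8 fixed hepatocyte markers summed to 11980 CPM in L hepatocyte nuclei but to 3173, 4182, 2817 and 5235 CPM in cultured clusters 0, 1, 14 and 17, and to 2694 CPM in the cultured endothelial cluster. By this sum clusters 0 and 14 hardly stood above that endothelial cluster, so they are called hepatocytes here by the rule. Alb alone made 1391 CPM in PH hepatocytes and 1334 CPM in the cultured endothelial nuclei. Cps1 (1231 against 600.8 CPM), Hnf4a (206.8 against 60.19 CPM), Apob and Abcb11 were higher in PH hepatocytes, while Ttr, Cyp3a11 and Serpina1a were lower. The 8 endothelial markers summed to 6277 CPM in the endothelial cluster and to between 80.6 and 130 CPM in the 4 clusters. Another cultured cluster of 2321 nuclei with a median of 1608 UMIs was left out. Across the pools, 337 cell barcodes occurred more than once. Levels are in CPM, a gene's UMIs relative to all UMIs of a sample's hepatocyte nuclei on the usual fixed total, and scaled by TMM, which sets samples on a scale where most genes do not move. This scaling mattered. Of the genes called between PH and L, 50.7% were higher in PH with TMM and 74.1% with total UMIs alone, and for PH against CS these shares were 53.5% and 79.8%. The median log2 change of all genes, PH against L, was 0.04 with TMM and 0.57 with total UMIs. For CS against L the share that was higher was 35.8% with TMM, 47.1% with another size factor (RLE) and 18.5% with total UMIs.

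After 24 h of culture, hepatocyte nuclei carried more RNA of the duct transcription factors Sox9 and Sox4, of Bicc1 and of Spp1 than liver hepatocytes. Sox9 rose 7.92-fold, Sox4 30.6-fold, Bicc1 3.06-fold and Spp1 7.58-fold between the group means, and for these 4 genes no PH sample overlapped an L sample. The share of all genes without such an overlap was not counted, so the separation is not read as particular to these members. Spp1 was not above endothelial nuclei in its share of nuclei with a UMI, and Bicc1 did not rise in cultured cluster 1, where its log2 change against L was -0.11. The keratins did not follow: Krt7 was lower in PH, in a call lost with the pool as a covariate, and Krt19 stayed at 11 UMIs or fewer per sample type. In the edgeR quasi-likelihood fit over 26521 genes, 7 of the 9 members were called between PH and L, 5 higher and 2 lower. In the same comparison 54.1% of all genes tested were called, 27.4% higher and 26.7% lower. Neither lower call, of Pkhd1 or Krt7, was kept with total UMIs in place of TMM. The higher call of Epcam was lost when some of the mice were left out.

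**Figure D1:**
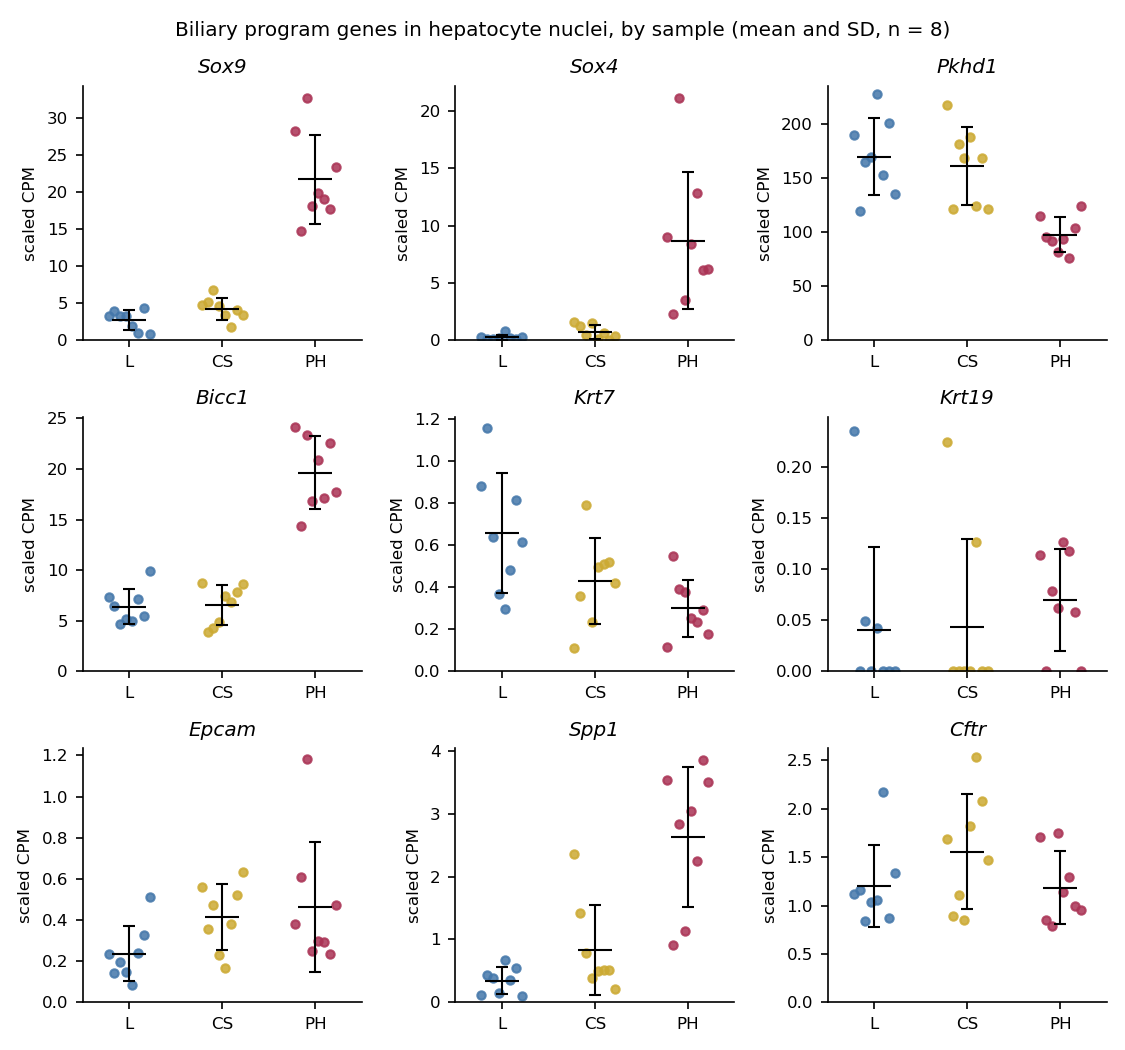
Scaled CPM (TMM) of each of the 9 genes in the hepatocyte nuclei of each L, CS and PH sample; points are samples and bars the mean and SD, n = 8 per sample type. Sox9 and Bicc1 separate PH from both other sample types, Pkhd1 sits lower in PH, and Krt19 stays near 0.

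The level of Sox9 was 0.820 scaled CPM in the lowest L sample, 3.29 at the median and 4.40 in the highest. In CS the lowest, median and highest values were 1.78, 4.37 and 6.82, and in PH they were 14.8, 19.4 and 32.7. Every PH sample therefore stood above every L and every CS sample, while L and CS overlapped. The log2 fold change was 2.98 (SE 0.258) for PH against L, with an adjusted p of 2.25e-11 in edgeR, and 2.35 (SE 0.264) for PH against CS, with an adjusted p of 6.27e-09. Between CS and L it was 0.64 (SE 0.280, adjusted p = 0.11), with CS higher in 7 of 8 mice.

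Sox4 started from almost nothing. All 8 L samples together held 40 UMIs of Sox4 in hepatocyte nuclei, against 52 in CS and 1224 in PH. Its scaled level ran from 0.109 through a median of 0.232 to 0.806 in L, and from 0 through 0.555 to 1.57 in CS. In PH it ran from 2.31 through 7.33 to 21.1, so that PH again lay above every sample of the other groups but spread over a wider range than Sox9. The log2 fold change was 4.77 (SE 0.444, adjusted p = 1.1e-10, edgeR) against L and 3.24 (SE 0.432, adjusted p = 1.52e-07) against CS. The highest L sample, L5, shared its sequencing pool with PH3, which had the highest PH level, and with PH8.

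Both Sox genes are also read in other nuclei of the culture, so the surroundings are given here. Sox4 reached 220 CPM in the cultured endothelial nuclei, against 14.1 CPM in cultured hepatocyte cluster 0. The 8 endothelial markers summed to between 59.4 and 116 scaled CPM in the hepatocytes of PH samples and 39.2 to 64.7 in those of L. PH3, with the highest Sox4 level of 21.1, had the lowest endothelial sum of 59.4, while PH6, with the next highest Sox4 level of 12.8, had the highest sum of 116. The part of endothelial RNA in the Sox4 level was not tested. In barcodes with at most 100 UMIs, which hold free RNA rather than nuclei, Sox9 stood at 5.44 CPM in pools without PH and at 23.6 CPM in pools without L. For Sox4 these values were 2.72 and 15.0 CPM, and for Spp1 1.36 and 7.86 CPM. The 2 pools that held both L and PH samples (2 L and 3 PH samples) were also fitted together, with no term for the pool. The log2 fold change of PH against L was then 3.28 for Sox9 (adjusted p = 8.64e-06, edgeR), 4.17 for Sox4 (adjusted p = 0.00156) and 2.43 for Spp1 (adjusted p = 0.00554). In low-UMI barcodes, Sox9 and Sox4 each stood at 1.73 CPM in pool 2 and 15.85 CPM in pool 5, and Spp1 at 3.47 and 1.76 CPM. Pool 5 held 2 of these PH samples and 1 of the L samples, so this fit did not equalize free RNA between the groups.

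Single nuclei gave the same order for Sox9 but not for every gene. When each nucleus was thinned to 1000 UMIs, Sox9 was seen in 0.255% of L hepatocyte nuclei and 2.93% of PH hepatocyte nuclei (95% exact binomial interval 2.66 to 3.21). Endothelial nuclei, which should lack it, gave 0.0865% in L and 0.527% in PH. Over the pooled nuclei, the median depth before thinning was 7695.5 UMIs in L hepatocytes and 6419 in PH hepatocytes. It was 3141.5 in L endothelial and 1377 in PH endothelial nuclei. Without thinning, Sox9 was seen in 2.11% of L and 11.6% of PH hepatocyte nuclei. Sox4 was seen in 0.0621% of L and 1.00% of PH hepatocyte nuclei after thinning, or 0.24% and 3.66% without it, below the 15.96% of PH endothelial nuclei, so endothelial nuclei are no background for Sox4. The thinning left out 508 L and 83 PH hepatocyte nuclei with fewer UMIs. All intervals cover counting error only.

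Pkhd1 and Bicc1 are the pair of genes whose loss causes cystic ducts. In the summed hepatocyte nuclei, scaled by TMM, they moved in opposite directions in culture. With cultured cluster 0 alone the fall of Pkhd1 was not seen, and with cluster 1 alone the rise of Bicc1 was not. Pkhd1 was already well expressed in liver hepatocytes, at 120 scaled CPM in the lowest L sample, 167 at the median and 228 in the highest. CS was alike, at 121, 169 and 218. In low-UMI barcodes Pkhd1 stood at 149.6 CPM in pools without PH and 130.1 CPM in pools without L, near its mean unscaled level of 154.6 CPM in L and 129.7 CPM in PH hepatocytes. In thinned nuclei it was seen in 13.9% of L hepatocyte and 2.46% of L endothelial nuclei, and in 9.82% and 3.77% in PH. PH ran from 76.1 through 94.97 to 125, and 7 of the 8 PH samples lay below every L sample. The log2 fold change was -0.80 (SE 0.143, adjusted p = 1.73e-05, edgeR) against L and -0.72 (SE 0.143, adjusted p = 7.35e-05) against CS. With total UMIs in place of TMM it was -0.25 against L and the call was lost (adjusted p = 0.072), while the median of all genes moved to 0.57. In spliced UMIs alone it was -0.29 (adjusted p = 0.0855).

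Bicc1 rose. Its scaled level was 4.73, 5.97 and 9.95 in the lowest, median and highest L sample, and 3.92, 7.15 and 8.76 in CS. In PH it was 14.3, 19.3 and 24.1, above every L and CS sample. The log2 fold change was 1.63 (SE 0.168, adjusted p = 9.39e-10, edgeR) against L and 1.60 (SE 0.177, adjusted p = 4.38e-09) against CS. In thinned nuclei Bicc1 was seen in 0.725% of L hepatocyte nuclei, which is not above the 0.865% of L endothelial nuclei. In PH it was seen in 2.39% of hepatocyte and 0.904% of endothelial nuclei. Its level in low-UMI barcodes was 36.7 CPM in pools without PH and 27.9 CPM in pools without L.

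The structural duct markers remained at or near the limit of detection in hepatocytes. Krt7 gave 77 UMIs in L and 41 in PH. Its scaled level ran from 0.297 to 1.16 in L with a median of 0.628, and from 0.114 to 0.547 in PH with a median of 0.273, so the groups overlapped. Krt7 fell with a log2 change of -1.10 (SE 0.319, adjusted p = 0.0039, edgeR). This call was lost with the pool as a covariate, where the change was -0.26 (adjusted p = 0.667), and with total UMIs, where it was -0.58 (adjusted p = 0.146).

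Krt19 was counted 6 times in L, 3 times in CS and 11 times in PH, over all hepatocyte nuclei. The log2 change of PH against L was 0.57 with an interval from -0.79 to 1.93, so a difference in either direction was not detectable at this depth. The 11 UMIs in PH all came from cluster 0. Epcam gave 28 UMIs in L, 21 in CS and 63 in PH, with scaled levels from 0.0848 to 0.513 in L and 0.234 to 1.18 in PH. Its log2 change of 0.95 (SE 0.360, adjusted p = 0.0264, edgeR) was lost without mouse 2, 3 or 5, with adjusted p up to 0.144, and was -0.34 in thinned nuclei. In thinned nuclei Epcam was seen in 0.061% of PH hepatocyte nuclei (95% exact binomial interval 0.0279 to 0.116). The 0.151% of PH endothelial nuclei rests on 2 of 1328 nuclei (interval 0.0182 to 0.543). Without thinning these shares were 0.378% and 0.387%, so Epcam in PH hepatocytes could not be told from its level in endothelial nuclei.

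Spp1 rose with culture. It ran from 0.103 through a median of 0.378 to 0.679 scaled CPM in L, from 0.211 through 0.514 to 2.36 in CS, and from 0.911 through 2.94 to 3.86 in PH. PH lay above every L sample and overlapped CS. The log2 fold change was 2.81 (SE 0.376, adjusted p = 1.49e-07, edgeR) against L and 1.58 (SE 0.385, adjusted p = 8.75e-04) against CS. After thinning, 0.0276% of L hepatocyte nuclei (95% exact binomial interval 0.00752 to 0.0707) and 0.366% of PH hepatocyte nuclei (0.275 to 0.477) held an Spp1 UMI. The PH share was not above that of PH endothelial nuclei, 0.377%, which rests on 5 of 1328 nuclei (interval 0.122 to 0.876), so the level in PH hepatocytes could not be told from background. Without thinning, the shares in PH were 1.70% and 0.885%. Cultured endothelial nuclei stood at 4.76 CPM and cultured hepatocyte cluster 0 at 5.31 CPM, with Poisson intervals that overlap.

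Cftr did not differ beyond the spread between samples. Its median scaled level was 1.09 in L, 1.58 in CS and 1.07 in PH. The log2 change of PH against L was 0.01, with an interval from -0.44 to 0.47 (adjusted p = 0.973, edgeR). The share of thinned PH hepatocyte nuclei with a UMI was 0.217%, below the 0.828% of endothelial nuclei.

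**Figure D2:**
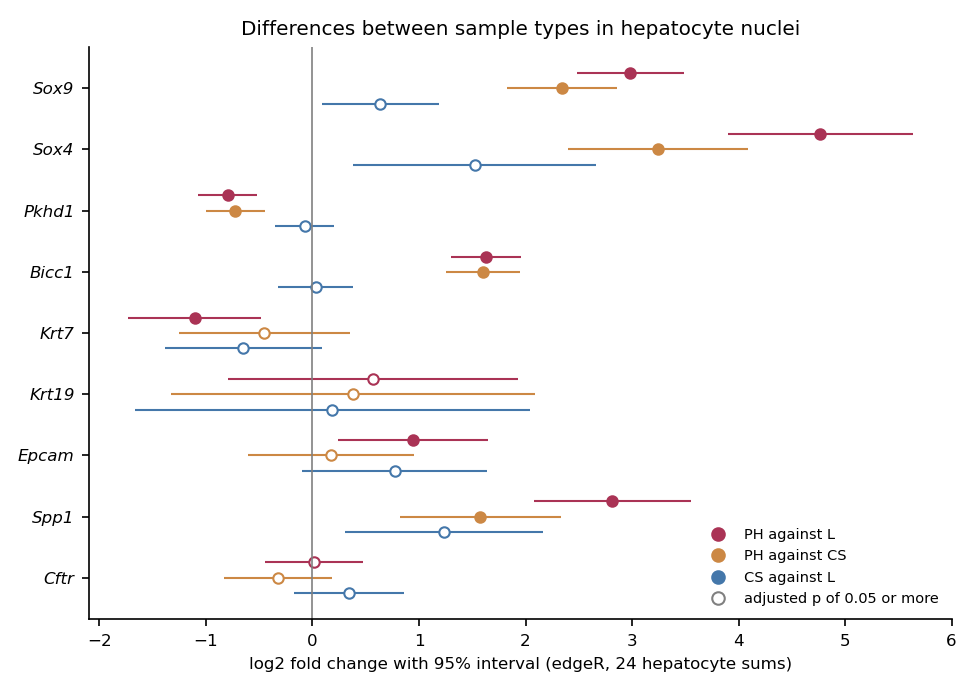
log2 fold change with its 95% interval from edgeR for each of the 9 genes, for PH against L, PH against CS and CS against L in hepatocyte nuclei. Sox4 has the largest change against L at 4.77, followed by Sox9 and Spp1, while Pkhd1 and Krt7 lie below 0.

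Against CS, which had passed through the same digestion, 5 of the 9 members were called: Sox9, Sox4, Bicc1 and Spp1 were higher in PH, and Pkhd1 was lower. The background in that comparison was 51.6% of genes called, 27.6% higher and 24% lower. The other members had log2 changes of -0.45 (Krt7), 0.38 (Krt19), 0.18 (Epcam) and -0.33 (Cftr), none past the threshold. Both comparisons use the same PH samples.

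Between CS and L none of the 9 members was called by edgeR, where 21.5% of all genes were, 7.69% higher and 13.8% lower. Unadjusted p was under 0.05 for 3 of them. Sox4 had a log2 change of 1.52 (adjusted p = 0.0611), Spp1 of 1.24 (adjusted p = 0.0625) and Sox9 of 0.64 (adjusted p = 0.11). When the mouse was added as a replicate block, which the pairing of samples allows, all 3 were called: Sox4 at 1.66 (adjusted p = 0.0314), Spp1 at 1.36 (adjusted p = 0.0269) and Sox9 at 0.67 (adjusted p = 0.0457). DESeq2 without the block also called 3. Of all genes, the block called 6098 and DESeq2 6195, in place of 5698. For Sox9, unspliced UMIs alone gave a log2 change of 1.42 (adjusted p = 0.00306, edgeR), and spliced UMIs alone gave 0.04 (adjusted p = 0.951), while the test of its spliced share itself did not pass (adjusted p = 0.1255, exact permutation).

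The cultured hepatocytes were not uniform. Clusters 0 and 1 held 21.1 to 55.4% and 30.8 to 50.2% of a PH sample's hepatocyte nuclei, and clusters 14 and 17 were smaller. The values that follow are raw CPM per sample, without TMM scaling, and are given as a description, since the clusters were made from all genes. Pkhd1 stood at a median of 236 CPM in cluster 0, from 184 to 311, and was higher there than in clusters 1, 14 and 17 in 8 of 8 samples. Its medians in those were 43.7, 52.6 and 15.1 CPM. Bicc1 followed another pattern, with medians of 38.7 CPM in cluster 0 and 38.4 in cluster 14, 17.8 in cluster 17 and 7.74 in cluster 1.

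Sox9 had its lowest median in cluster 0, where Pkhd1 had its highest. Its median was 20.8 CPM in cluster 0, 29.8 in cluster 1, 45.1 in cluster 14 and 40.5 in cluster 17, and cluster 14 was above cluster 0 in 8 of 8 samples, and clusters 1 and 17 in 7 of 8 each. Clusters 14 and 17 did not separate, with cluster 14 higher in 6 of 8. Sox4 medians were 10.8, 4.80, 12.6 and 9.49 CPM in clusters 0, 1, 14 and 17, and Spp1 medians were 5.62, 2.14, 3.14 and 2.04 CPM.

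**Figure D3:**
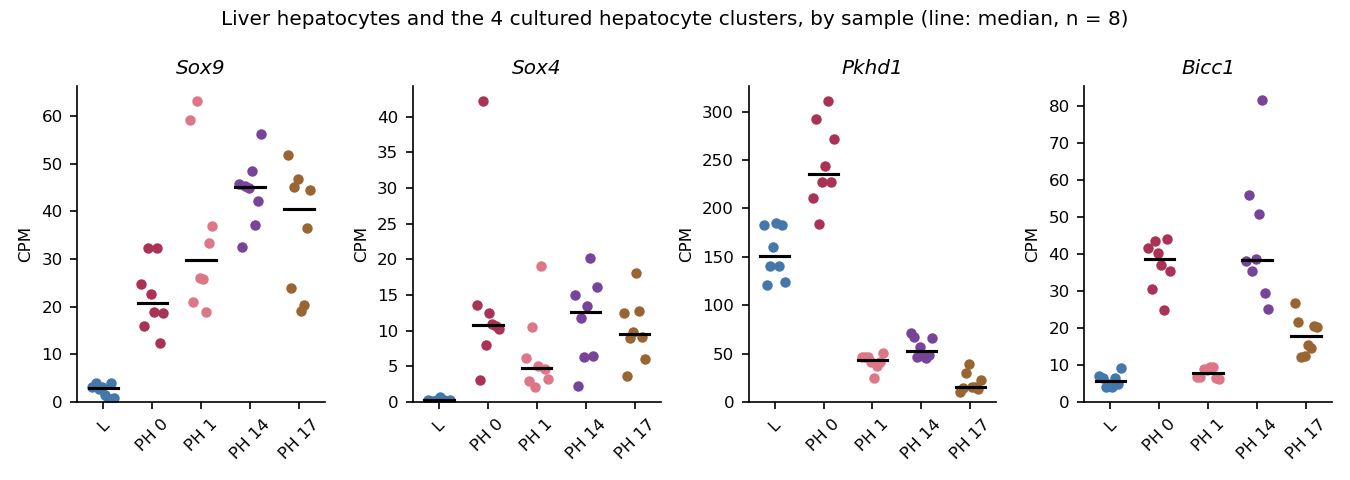
CPM per sample in liver hepatocytes and in the 4 cultured hepatocyte clusters 0, 1, 14 and 17; points are samples and lines the median, n = 8. On this unscaled axis the Pkhd1 median is 236 CPM in cluster 0 and 151 CPM in L, and it is 52.6 CPM or less in the other clusters, whereas the Sox9 median is lowest in cluster 0 of the cultured clusters.

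Each cluster set alone against L showed where the summed values came from. With cluster 0 as the only PH nuclei, Pkhd1 had a log2 change of 0.20 (adjusted p = 0.286, edgeR), so the fall was not seen there. With clusters 1, 14 and 17 it was -2.45, -2.35 and -3.82. Bicc1 gave 2.23 with cluster 0, 2.07 with cluster 14, 0.86 with cluster 17 and -0.11 with cluster 1.

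The authors' biliary annotation held 285 nuclei in 2 clusters that were not alike. Cluster 28 had 158 nuclei, 157 of them from L. Its 13 mesothelial markers, genes of the liver's outer lining, summed to 11030 CPM, and 140 of its nuclei held more mesothelial than cholangiocyte UMIs. Its 16 cholangiocyte markers, which hold no member, summed to 5864 CPM in L while Thsd4 alone stood at 5456 CPM in the cluster, and their median gene was at 1.902 CPM against 383.4 in cluster 30 of L. Sox9 and Spp1 were at 0 UMIs, which allows up to 7.02 CPM by the exact Poisson bound. Cluster 30 had 127 nuclei, 63 from L, 41 from CS and 23 from PH. There the cholangiocyte markers summed to 16830 CPM in L against 698.7 for the mesothelial markers, and every nucleus held more cholangiocyte UMIs. The labelled identity therefore held for cluster 30 and went against the markers in most of cluster 28. In the whole annotation, 8 nuclei lay within 1 UMI of the dividing line.

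Cluster 28 carried a different set of the members. Bicc1 reached 3618 CPM there, Krt7 98.9, Cftr 87.5 and Krt19 72.3 CPM, pooled over L. Pkhd1 was at 34.2 CPM and Epcam at 1.902 CPM from 1 UMI. Adding cluster 28 to the duct nuclei would therefore raise the keratins of L and lower its Pkhd1, Sox9 and Spp1.

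In the duct nuclei of cluster 30 from L, all 9 members were detected. Pkhd1 stood at 8838 CPM, Bicc1 at 3067, Spp1 at 915, Sox9 at 85.2, Sox4 at 68.2, Epcam at 51.1, Cftr at 34.1 and Krt7 and Krt19 at 22.7 CPM each, from 4 UMIs. These are pooled levels, with no test, because the authors named these clusters with marker genes that may include members. Read gene by gene against hepatocytes, the distance to the PH nuclei of cluster 30 differed. PH hepatocyte clusters reached 21.8 to 44.4 CPM of Sox9 where cluster 30 of PH held 118, from 9 UMIs. For Krt19 they reached 0 to 0.218 CPM where cluster 30 of PH held 262, from 20 UMIs. Whether those 23 nuclei are cultured duct cells or were misassigned from L or CS was not tested. Spp1 was at most 5.31 CPM in cultured hepatocytes and 563 CPM in cluster 30 of PH.

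**Figure D4:**
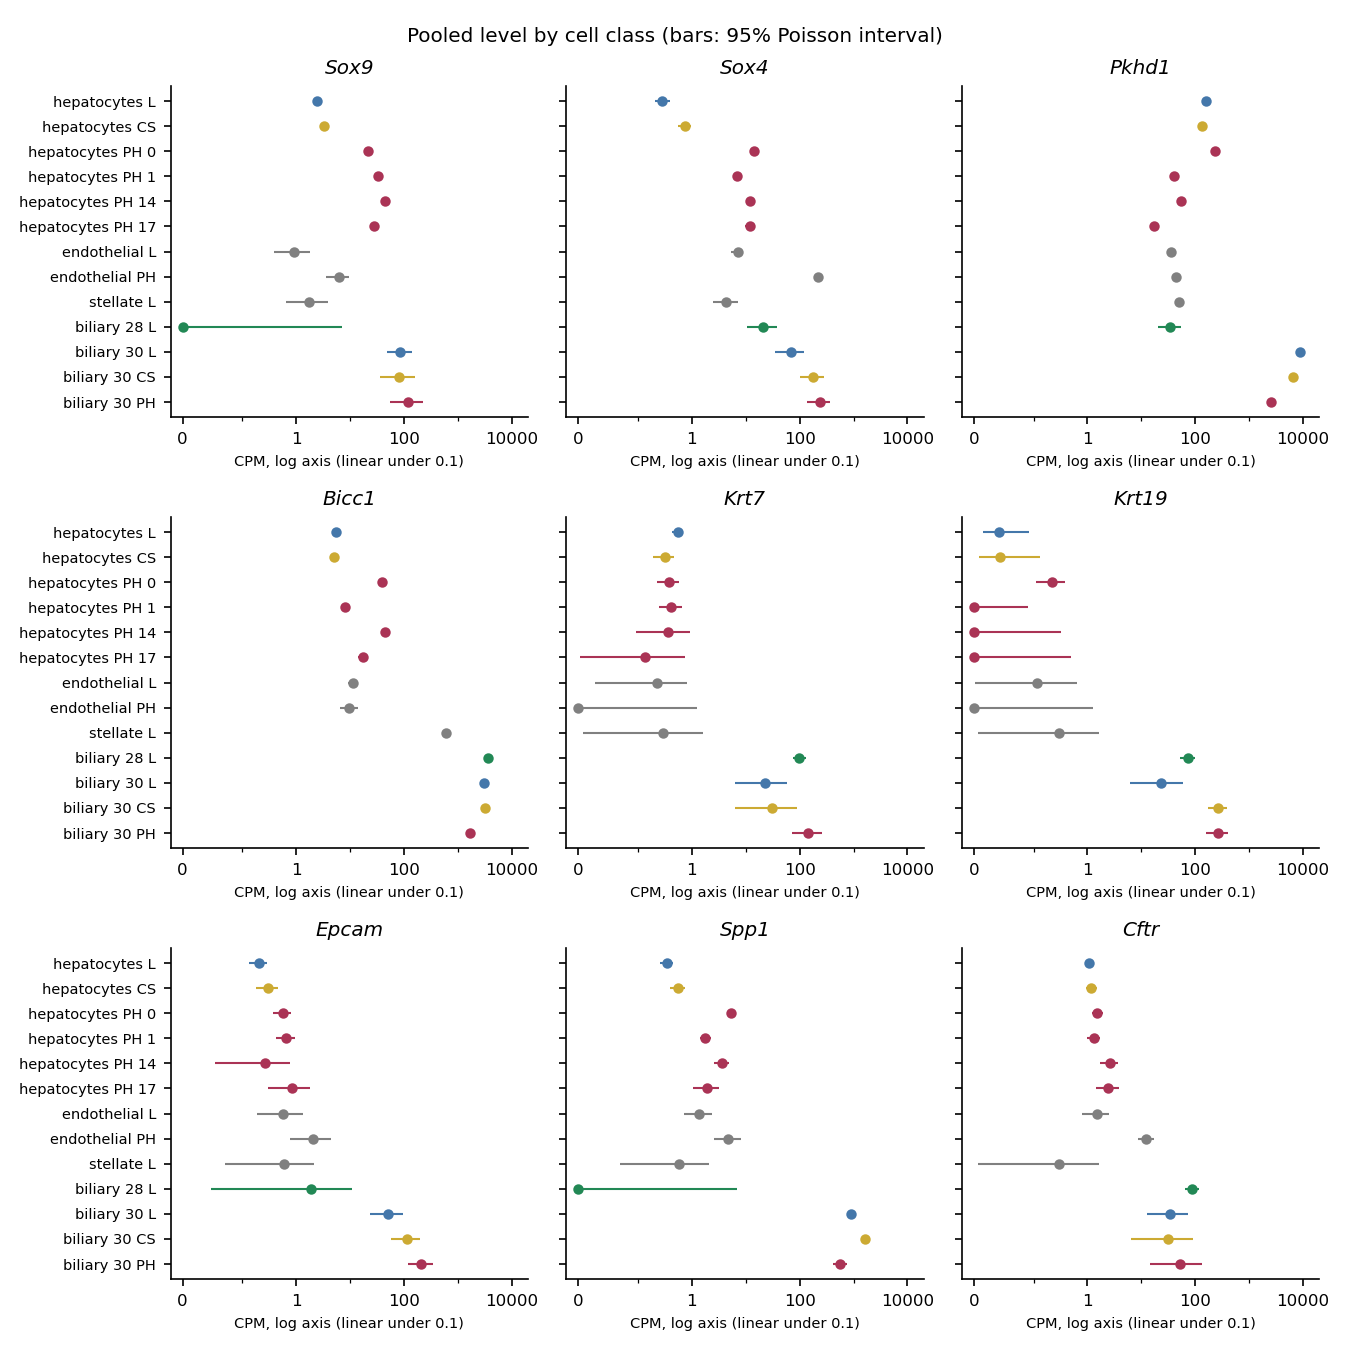
Pooled CPM of each gene by class of nuclei, on a log axis, with 95% Poisson intervals that cover counting error only. Duct nuclei of cluster 30 lie far above hepatocytes for Pkhd1, Bicc1 and Spp1, and cluster 28 shows Bicc1 without Sox9 or Spp1.

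UMIs of several members were seen in most single duct nuclei and in few single hepatocytes. After thinning to 1000 UMIs, 57 of 60 cluster 30 nuclei from L held UMIs of at least 2 members and 31 of at least 3. Among hepatocyte nuclei, at least 2 members were seen in 0.207% of L, 0.197% of CS and 1.12% of PH. At least 3 were seen in 0 of 14492 L, 2 of 12160 CS and 10 of 14750 PH hepatocyte nuclei. In cluster 28 of L, 33 of 143 nuclei held at least 2. Pkhd1 alone was seen in 98.3% and Bicc1 in 93.3% of the cluster 30 nuclei from L. Whether members were combined beyond their single shares was not tested.

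Nuclei of the biliary annotation could be compared between CS and L in 8 L and 4 CS samples that held at least 5 nuclei with more cholangiocyte than mesothelial UMIs. These included the 18 such nuclei of cluster 28, whose cholangiocyte UMIs were mostly of Thsd4 in the cluster as a whole and which cannot be taken for duct nuclei. Without them L1 and L4 held 4 nuclei each. Of the 9 members, Krt19 alone was called, where 2.03% of the 5373 genes tested were. Its log2 change was 3.15 (SE 0.742, adjusted p = 0.00218, edgeR). In cluster 30, Krt19 gave 0 UMIs in 6 L samples, 1 in L4 and 3 in L7. In CS it gave 12 UMIs in CS1, 6 in CS4, 6 in CS5 and 2 in CS8, and 0 in the others; CS4, with 4 nuclei, was not in the test. On cluster 30 alone, with 6 L and 4 CS samples, the change was 3.65 (adjusted p = 8.28e-04, edgeR). The call rested on few molecules: without CS1 it was 2.64 (adjusted p = 0.231), and with the mouse as a replicate block it was 4.19 (adjusted p = 0.0949). Cluster 30 of PH held 23 nuclei over 7 samples, and Pkhd1 stood at 2525 CPM there, Krt19 at 262, Epcam at 209 and Krt7 at 144 CPM, with no test.

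Hepatocytes next to the portal tracts are known to include cells with low Sox9, so the members were set against zonation, the graded gene use between the portal and the central vein. Within each sample, hepatocyte nuclei with at least 1000 UMIs were ranked by fixed periportal and pericentral genes, none of them a member, and the outer tertiles were compared. Sox9 in L rose from 0.641 ± 0.416 CPM in the pericentral nuclei to 4.36 ± 2.36 CPM in the periportal nuclei (SD, n = 8). In CS it rose from 1.34 ± 1.35 to 4.49 ± 1.3 CPM. Both differences had the same sign in 8 of 8 samples, with an adjusted p of 0.0352 in an exact paired permutation test over 18 comparisons, whose smallest unadjusted p for 8 pairs is 0.0078.

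Pkhd1 was also higher in the periportal nuclei. In L it was 141 ± 26.3 CPM pericentrally and 173 ± 27.8 CPM periportally, and in CS 110 ± 23.9 and 153 ± 27.2 CPM, in 8 of 8 samples each (adjusted p = 0.0352, exact permutation). No other member passed the test. Spp1 in L was 0.169 and 0.527 CPM, and in CS 0.379 and 0.816 CPM (adjusted p = 0.301 and 0.169, exact permutation). When nuclei were thinned to 1000 UMIs, the Sox9 and Pkhd1 differences kept their sign and did not pass (lowest adjusted p = 0.0703, exact permutation). The 16 cholangiocyte markers also summed higher in the periportal nuclei of L, at 1202 ± 293 against 971 ± 266 CPM, and Erbb4 alone stood at 940.1 CPM in L hepatocytes. Without nuclei that held 3 or more of those genes, the Sox9 and Pkhd1 differences still passed.

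**Figure D5:**
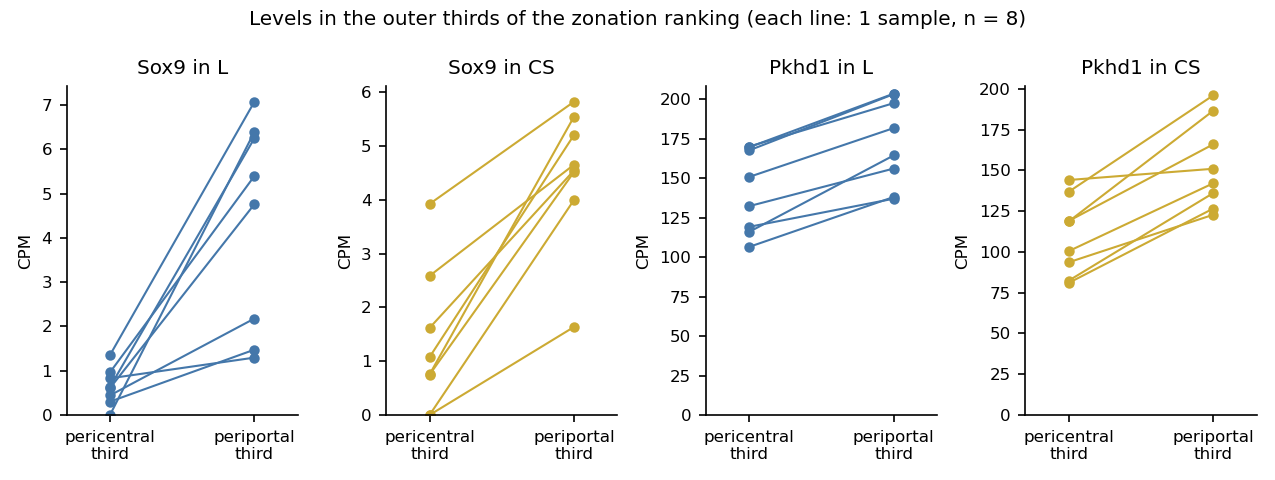
CPM of Sox9 and Pkhd1 in the pericentral and the periportal tertile of hepatocyte nuclei, in L and in CS; each line joins the values of 1 sample, n = 8 per sample type. Sox9 in L goes from a mean of 0.641 to 4.36 CPM, and all lines rise.

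The share of spliced RNA was measured for the members with enough UMIs. Pkhd1 was mostly unspliced. In L, 3.66 ± 0.749% (SD, n = 8) of its spliced and unspliced UMIs were spliced. The share was higher in CS, at 6.85 ± 2.18%, and in PH, at 6.32 ± 1.52%, each with an adjusted p of 0.0028 in an exact permutation test. In the replicate block of samples from the same mouse the adjusted p was 0.0234 for both. Within every pool that held both sample types, the CS or PH mean was above the L mean. The share for Bicc1 was 2.72 ± 1.38% in L and 3.90 ± 1.26% in PH (adjusted p = 0.146, exact permutation), and for Sox9 it was 82.1 ± 8.93% in 6 L samples, 71.3 ± 7.44% in 5 CS samples and 77.5 ± 2.57% in PH. Neither passed. Sox4 has 1 exon, and all its UMIs counted as spliced.

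Genes around the members were read from 6 lists, beside a background of 27.4% of all genes higher and 26.7% lower in PH than in L. Among the cholangiocyte transcription factors, 7 of 14 tested rose in PH against L, 4 fell and 3 did not pass, with a median log2 change of 0.44 beside 0.04 for all genes. In PH against CS, 4 of the 14 were higher and 5 lower, with a median of -0.05. Of all genes, 27.6% were higher and 24% lower in that comparison. With total UMIs, 6 of the 14 were higher and 3 lower against CS, with a median of 0.63 beside 0.69 for all genes. Glis3, a zinc-finger factor with cilium functions, rose by 4.76 in PH against L (SE 0.163, adjusted p = 2.2e-20, edgeR). This gain was not particular to hepatocytes. Pooled Glis3 was 4.37 CPM in L and 167 CPM in PH hepatocytes, and 10.5 CPM in L and 563 CPM in cultured endothelial nuclei. Klf5, a factor of proliferating epithelia, rose by 4.08 (SE 0.294). Foxa1, a pioneer factor of liver genes, had a log2 change of -1.50 (SE 0.215).

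Of the Notch pathway genes, 4 of 19 rose, 6 fell and 9 did not pass, with a median of -0.03, near the share of all genes called. With total UMIs, 10 rose and 4 fell. Numb, an inhibitor of Notch, changed by -1.28, Maml3, a coactivator of the Notch complex, by -1.94, and Psen2, a catalytic subunit of the receptor-cutting protease, by -2.06. Adam10, which sheds the receptors' outer part, rose by 0.71. Of the primary cilium and polycystic disease genes, 9 of 22 rose, 7 fell and 6 did not pass (median 0.12), and 13 rose and 5 fell with total UMIs. Kif3a, a motor of ciliary transport, rose by 1.98 and the ciliary kinase Nek8 by 1.42, while Ift140, of the return transport in the cilium, changed by -1.06.

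Of the epithelial keratins and junctions, 16 of 19 were higher, none lower, and the median was 1.65. Those that led were Krt8, the simple keratin that hepatocytes also use, at 3.36 (SE 0.205), the integrin chain Itga6 at 2.66 and the collagen receptor Ddr1 at 2.90. Krt8 was higher still in CS, with 4.45 against L and -1.09 for PH against CS. In PH against CS, 12 of the 19 were higher and 3 lower, which were Krt8, Krt18 at -1.51 and Krt23 at -1.35. Of all genes, 27.6% were higher and 24% lower in that comparison, and with total UMIs the list had 15 higher and 1 lower. Of the duct transport genes, 7 of 16 rose, 1 fell and 8 did not pass (median 0.35). Vil1 of the microvilli rose by 1.964, the chloride-bicarbonate exchanger Slc4a2 by 0.98 and the chloride importer Slc12a2 by 1.44, and the water channel Aqp4 changed by -3.99.

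The ductular reaction and progenitor list, genes that injured livers turn on, had 16 of 21 genes higher, 1 lower and 4 that did not pass, with the highest median of the 6 lists at 2.84. Anxa2 rose by 6.76 (SE 0.324, adjusted p = 3.46e-17, edgeR), Tnfrsf12a, the receptor for TWEAK, by 5.88, galectin-3 (Lgals3) by 4.70 and Anxa5 by 3.48. It was also the list with the most calls between CS and L, at 11 of 21 higher and none lower, where 7.69% of all genes were higher and 13.8% lower, beside 3 of 14 transcription factors and 3 of 19 keratins and junctions. Against CS, PH had 11 of these 21 higher and 4 lower, and the Notch, cilium and transport lists had 3, 9 and 6 genes higher and 8, 6 and 3 lower. Of all genes, 27.6% were higher and 24% lower in PH than in CS. With total UMIs, the ductular list had 14 higher and 3 lower against CS. The Notch list then had 9 and 4, the cilium list 13 and 4, and the transport list 10 and 1. In that scaling 79.8% of all genes called against CS were higher. The counts describe the lists and were not tested against other genes.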

How the data were processed

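Nuclei were sorted, tagged with hashtag antibodies and sequenced with 10x Genomics 3′ chemistry. The authors mapped reads with Salmon Alevin to spliced and unspliced GRCm38 transcripts, called hashtags and doublets, removed the doublets and annotated cell types with Seurat. The deposited values are whole-number UMI counts per gene and barcode, with the spliced, unspliced and ambiguous (-A) counts in separate rows, and the authors' table of nuclei gives sample, cluster and cell type.

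Here the 3 kinds of counts were added per gene and summed over the hepatocyte nuclei of each hashtag sample. Genes with at least 10 counts over the 24 sums (26521) were tested with edgeR 4.0.16 (TMM, quasi-likelihood, group alone, all 3 sample types in 1 fit, Benjamini-Hochberg threshold 0.05), run in R 4.3.3. Thinning used 1000 UMIs, log2 values in the zonation test took a pseudocount of 1 CPM, and free RNA was read from barcodes with at most 100 UMIs. Spliced shares used samples with at least 20 UMIs of the gene. On simulated counts for PH against L, 93% of 200 genes changed 2-fold were recovered among 26521. These 200 were drawn from genes with a mean above 1 CPM, so the simulation does not cover Krt7, Krt19 or Epcam. It changed far fewer genes than the 54.1% called in the data, so it does not test the scaling under such a shift. Alternatives covered scaling, filters, RNA state, clusters, pools, DESeq2 1.42.0, left-out mice and the mouse as a replicate block. CS and L samples of the same mouse, which come from the same liver, deviated together (correlation 0.352 to 0.850 over 8601 genes), and PH less so (median 0.043 with L). P-values of the main fit measure the spread between the 8 samples of each sample type, which come from different mice. The fit has no term for the mouse or the pool. That spread mixes animal with pool, since some pools held no PH samples and others no L samples. The zonation test rests on differences within samples. The fit of biliary nuclei and the fit of pools with both L and PH samples rest on fewer samples.

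The members, gene lists and tests were chosen with earlier results of these data known. All 9 members are named whatever their values. Of each list, the 4 genes with the lowest adjusted p between PH and L at a mean of at least 1 CPM are named, except a few genes that are not reported here. Genes most like a member have the highest Pearson correlation at a mean of at least 10 CPM. Hashtag libraries were not used beyond the authors' sample calls.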

Additional observations from a re-analysis of the deposited data

Results flagged for a closer look

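In 5 of the 39 groups of samples that were examined, 1 sample stood far from the rest by Dixon's criterion, where chance gives about 1 in 20. In liver hepatocytes these were L5 for Sox4, at 0.806 scaled CPM, L1 for Krt19, at 0.2354, and L6 for Cftr, at 2.172. In PH it was PH3 for Epcam, at 1.181 scaled CPM. The spliced share of Bicc1 was 8.065% in CS4, above the other CS samples. Without mouse 5, the log2 change of Sox4 between CS and L was called in edgeR, at 2.23 (adjusted p = 0.0116). The Krt19 value rests on 6 UMIs in all L samples.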

How the results depend on the processing

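Sox9, Sox4 and Spp1 kept their direction and their call for PH against L under each of these alternatives in which they were fitted, with log2 changes down to 2.68 for Sox9, 3.86 for Sox4 and 1.84 for Spp1. The alternatives with PH cluster 1, 14 or 17 alone, with cluster 8, and those for biliary nuclei and left-out animals in zonation and splicing were chosen after seeing the data. Krt7, Krt19 and Epcam had too few counts for the stricter filter. The cause was not tested for any change below.

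Of the members called between CS and L (0 in edgeR with TMM), 2 were called with RLE size factors, with a stricter expression filter, and with PH cluster 14 or 17 alone, 1 with spliced UMIs, unspliced UMIs, PH cluster 0 or cluster 8 added, and 3 with DESeq2; leaving out a mouse gave 0 to 2. The replicate block gave 3, and among biliary nuclei it gave 43 called genes in place of 109; there the Krt19 call was lost, and it changed no other call of a member. Over all genes, CS against L gave 5698 calls in the main fit, 5585 with RLE, 5754 with the stricter filter and 6195 with DESeq2. They numbered 6098 with the replicate block, 5983 with cluster 8 added, 4734 with spliced and 5040 with unspliced UMIs. PH cluster 0, 14 or 17 alone gave 5467, 5039 or 4749. Between PH and L, 4 members were called in unspliced UMIs in place of 7, and between PH and CS 3 with cluster 1 alone in place of 5. All genes called there numbered 11946 in place of 14348, and 13197 in place of 13686. Sox4 has no unspliced UMIs and could not be called in them. Pools 2 and 5 alone gave 9259, 9059 and 1547 called genes for PH against L, PH against CS and CS against L, with fewer samples, and thinning gave 2919 for CS against L in place of 5698. All nuclei of the biliary annotation gave 646 called genes, and leaving out a sample 72 (without CS1) to 113. Zonation calls numbered 0 in place of 4 after thinning, which kept all 8 pairs. The 4 calls therefore did not hold at this equal depth, where fewer UMIs were left. Calls also numbered 0 whichever mouse was left out. All differences of Sox9 and Pkhd1 then kept their direction, with adjusted p from 0.0562 to 0.0703 over 7 pairs (exact permutation). With 7 pairs no smaller p is possible, so the counts without a mouse say nothing about stability.

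Values that changed sign were mostly of members without a call. With cluster 0 alone Pkhd1 was 0.20 against L and 0.25 against CS. With cluster 1 alone Bicc1 was -0.11 against L and -0.16 against CS, and Cftr -0.27 against L. With cluster 14 alone Epcam was -0.44 against L and -1.23 against CS, and Cftr 0.00015 against CS; with cluster 17 alone Cftr was 0.19 against CS. With total UMIs, PH against CS became 0.24 for Krt7 and 0.36 for Cftr, and CS against L -0.13 for Bicc1. For CS against L, Pkhd1 was 0.0079 with RLE, 0.0098 with the stricter filter, 0.37 in spliced and 0.0098 in unspliced UMIs, and 0.0078 with DESeq2. In spliced UMIs Bicc1 was -0.26 and Epcam -0.56 for CS against L. In unspliced UMIs Krt19 was -0.10 against L and -0.15 against CS, Epcam -0.12 in PH against CS, and Krt7 0.33 in CS against L. In thinned nuclei, PH against L was -0.34 for Epcam and -0.57 for Cftr, and CS against L -0.0016 for Bicc1 and -0.60 for Epcam. With annotation matched to sample type Bicc1 was -0.013 in CS against L. Without nuclei that held 3 or more cholangiocyte genes, Krt19 was -0.13 in PH and -0.29 in CS against L, and Cftr -0.086 in PH. In pools 2 and 5, CS against L was 0.11 for Krt7 and -0.26 for Spp1. Counting ambiguous UMIs as spliced moved the Bicc1 share to 0.31 points for CS against L. Leaving out mice gave -0.11 to 0.19 for Cftr in PH against L, -0.049 to 0.13 for Bicc1 and -0.29 to 0.39 for Krt19 in CS against L, -0.074 to 0.33 for Epcam in PH against CS, -0.95 to 0.12 points for the Bicc1 share, and -0.35 to 1.22 for Spp1 in biliary nuclei.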

Other observations

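Over the 24 hepatocyte sums, the genes most like each member by Pearson correlation of log2(CPM + 1) were, for Sox9, the collagen gene Col4a1 (r = 0.977), Dusp10 and Plk2. Sox4 was most like AC160336.1 (r = 0.950), Tdrd9 and Tanc2, and Bicc1 most like Miga1 (r = 0.947) and Ampd3. Pkhd1 was most like Elp4 (r = 0.931), Vps13b and Arhgap26, Spp1 most like Akap12 (r = 0.903), Traf3 and Plscr1, and Cftr most like Cldn34c1 at a lower r of 0.761. The sums share sample types, mice and pools, so these values describe the 24 sums.

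Bicc1 was also high in stellate nuclei of L, at 603 CPM. The cholangiocyte markers that are not members summed to a median of 1215 scaled CPM in L hepatocytes and 317 in PH, of which Erbb4, a growth factor receptor, made 1048 in L and 26.8 in PH. Without Erbb4 the medians were 172.5 and 292.7 scaled CPM, so the sum with Erbb4 and the sum without it run in opposite directions.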
